A study of Mus musculus with 8 samples.

Results

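Axon guidance ligands and receptors are the semaphorins with their plexin and neuropilin receptors, the ephrins with the Eph receptors, the Slits with the Robos, and the netrins with Dcc and the Unc5 receptors. They were taken from the deposited expression table by name, as every protein-coding row whose symbol belongs to one of these families. The rule gave 71 of 46635 rows, of which 35 encode ligands and 34 receptors. The other 2 are Unc50 and Unc5cl, which share the letters of the Unc5 symbol but are not netrin receptors, and they are described apart.

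The libraries hold RNA of mouse small-intestinal mesenchyme, the gut wall that remained after EDTA treatment had taken off the epithelium. They were made at postnatal day 14 (P14, 4 libraries) and before birth at E17.5 (4 libraries, whose age label reads E17), all from wild-type mice with no treatment. The study asked how the gut lengthens during development. Nothing in the labels ties a replicate to its own animal or to pooled animals, and p-values therefore speak of the spread among these 8 libraries, part of which may be technical.

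These families were named for steering growing axons, and the same proteins act on migrating cells and on vessels. A ligand on or released from one cell binds a receptor on another, and the receptor's cytoplasmic part changes the cytoskeleton so that the cell is drawn in or turned away. In the developing gut they are known from enteric neural crest cells and their axons, from the innervation of the gut wall, and from endothelium, where Plxnd1, Nrp1, Ephb4, Efnb2, Unc5b and Robo4 are best known. Several members, such as the ephrin-B receptors of crypt cells, also act in epithelium.

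Values are FPKM, reads scaled by gene length and by the authors' library size, so levels of different genes share a per-length scale. Assigned reads numbered 17702122 to 18474346 per P14 library and 16660998 to 19496632 per E17.5 library. P14 replicate 1 stood apart. Its 9 epithelial markers summed to 3734 FPKM, against 119.7 to 587.3 FPKM in P14 replicates 2 to 4 and 31.4 to 53.0 FPKM at E17.5, and all 9 were higher in every P14 library than in every E17.5 library. Its 7 smooth muscle markers summed to 2677 FPKM, against 7377 to 10413 FPKM in the other P14 libraries and 4666 to 5127 FPKM at E17.5, and its 6 fibroblast markers to 865 FPKM, against 2369 to 2438 FPKM and 2241 to 2484 FPKM. In that library, labelled as mesenchyme, the epithelial sum thus lay above the smooth muscle sum. The 8 enteric neuron markers summed to 157 FPKM in P14 replicate 1, 384 to 506 FPKM in P14 replicates 2 to 4 and 302 to 353 FPKM at E17.5. No marker of these lists was at 0 in all libraries of an age. Results are given with all 8 libraries and, where it changes them, without P14 replicate 1.

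Of the 71 genes, 59 reached 1 FPKM in 4 or more of the 8 libraries and were tested. Each of the 59 reached 1 FPKM in at least 1 library of each age, although the 4 libraries of 1 age were enough to pass. At P14, 18 of the 59 fell and 2 rose, and 39 did not pass (limma on log2(FPKM + 1), adjusted p under 0.05 over all 14044 tested genes). This is 30.5% lower and 3.39% higher among the tested members, beside 15.0% lower and 9.72% higher among all tested genes. The median log2 fold change was -0.33 over the tested members and 0.00 over all tested genes. After rescaling to TPM, which moved the median of all tested genes to -0.18, 899 genes rose and 2678 fell, against 1365 and 2108 on the authors' scale, and 1 member rose and 18 fell. Fold changes here are P14 over E17.5 on the log2(FPKM + 1) scale, which understates the change of genes near 1 FPKM. By role, 12 of 25 tested receptors and 6 of 33 tested ligands fell, and 0 receptors and 1 ligand rose. These counts leave out more of the 34 receptors than of the 35 ligands. A gene at 1 FPKM in P14 replicates 2 to 4 only could not be tested. Of the untested receptors, Epha1, Epha5 and Robo3 had every P14 value above every E17.5 value. Plxnb3, Epha6, Epha8 and Unc5d had this without P14 replicate 1, and no untested receptor had all P14 values below E17.5. The median log2 fold change was -0.62 over the receptors and -0.22 over the ligands, and -0.44 and -0.08 without P14 replicate 1. The 18 were Unc5c, Unc5b, Robo1, Robo2, Plxnd1, Plxnc1, Plxna1, Plxna3, Nrp1, Ephb1, Ephb2, Ephb4, Sema5b, Sema3a, Sema3f, Sema6b, Efna2 and Efnb2, and the increases were Sema3b and Unc50. In 21 tested members all P14 libraries lay below all E17.5 libraries and in 5 above (35.6% and 8.47%), beside 20.4% below and 15.6% above among all tested genes.

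Without P14 replicate 1, 25 members fell and 13 rose (42.4% and 22%, in all 38 of 59, beside 26.9% lower, 22.6% higher and 49.5% in either direction among all tested genes). All 20 earlier calls remained in the same direction, and 7 decreases and 11 increases were added. Of the 13 increases 10 were ligands, namely Sema4a, Sema3b, Sema7a, Ntn1, Ntn4, Slit2, Slit3, Slit1, Sema3c and Sema4b. The other increases were the receptors Ephb6 and Epha7, and Unc50. Of the 25 decreases 15 were receptors and 10 ligands. Tested ligands thus rose and fell in equal share (30.3% each), beside 22.6% higher and 26.9% lower among all tested genes. Of the tested receptors 8% rose and 60% fell. The counts by role are descriptions, and no test of ligands against receptors was made.

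**Figure D1:**
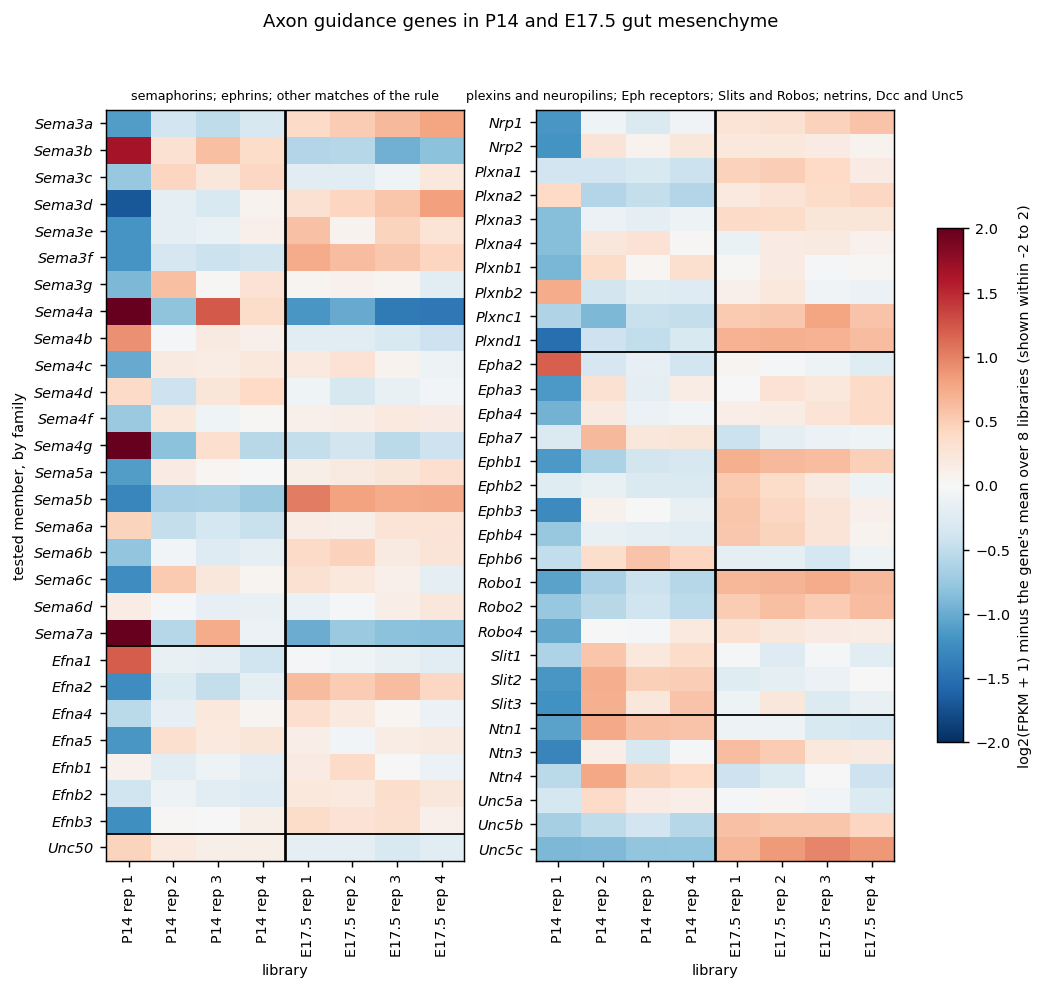
Each row is a tested member and each column a library, P14 at the left and E17.5 at the right of the thick line; colour gives log2(FPKM + 1) minus the gene's mean over the 8 libraries, with red higher and blue lower. Robo1, Robo2, Unc5b and Unc5c are blue in all 4 P14 libraries, while Slit2, Slit3 and Ntn1 are red in P14 replicates 2 to 4 and blue in P14 replicate 1.

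Among the Unc5 receptors, which carry the repulsive response to netrins, Unc5c had 1 of the 2 largest decreases, with Sema5b. The order of these 2 genes turned with the setting, for instance -2.31 for Unc5c and -2.35 for Sema5b with a pseudocount of 0.1. Unc5c (chromosome 3, 141171325 to 141540685, plus strand, GRCm39) was at 0.945, 0.973, 1.1 and 1.12 FPKM in P14 replicates 1 to 4, against 4.78, 5.54, 6.16 and 5.59 FPKM in E17.5 replicates 1 to 4. The ages did not overlap, and P14 replicate 1 did not stand apart from the other P14 libraries. The means were 1.03 ± 0.0861 FPKM at P14 and 5.52 ± 0.565 FPKM at E17.5 (SD, n = 4 each; -1.68 on the log2 scale, SE 0.107, adjusted p = 0.00029). In bulk RNA, fewer cells that express a gene and less RNA of it per cell cannot be told apart.

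Unc5b, the Unc5 receptor best known from endothelial tip cells, was at 12.5, 14.02, 15.3 and 13.3 FPKM in P14 replicates 1 to 4, against 30.8, 30.3, 30.2 and 27.5 FPKM in E17.5 replicates 1 to 4. Its P14 values again formed a tight group far below the E17.5 values (-1.06 on the log2 scale, SE 0.097, adjusted p = 0.000695). Unc5a was low at both ages, 1.37 ± 0.484 FPKM at P14 and 1.09 ± 0.182 FPKM at E17.5 (0.16 on the log2 scale, SE 0.168, adjusted p = 0.505), and its locus overlaps Hk3 on the opposite strand, whose mean was 1.96 FPKM. The remaining receptors did not reach the test: Unc5d had 0.193 FPKM in P14 replicate 1 and 0.415 to 0.484 FPKM in the other P14 libraries, against 0.174 to 0.315 FPKM at E17.5. Dcc, the receptor of attraction, held 98 reads (0.666 FPKM) in P14 replicate 1 and 6 to 21 reads in the other P14 libraries, against 7 to 22 reads at E17.5.

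The ligands of these receptors had another pattern. Ntn1, the founding vertebrate netrin and the member of this family with the highest mean level, was at 13.6, 50.7, 45.2 and 44.7 FPKM in P14 replicates 1 to 4, against 27.6, 27.7, 23.9 and 22.9 FPKM in E17.5 replicates 1 to 4. P14 replicates 2 to 4 lay above every E17.5 library and P14 replicate 1 below every one, and Ntn1 did not pass with all libraries (0.43 on the log2 scale, SE 0.382, adjusted p = 0.439) and rose without P14 replicate 1 (0.85, SE 0.0933, adjusted p = 0.000203). Ntn4, a basement membrane netrin that binds laminin, was at 1.04, 4.09, 3.05 and 2.93 FPKM in P14 replicates 1 to 4, against 1.23, 1.46, 1.99 and 1.23 FPKM in E17.5 replicates 1 to 4. Its libraries stood likewise, with no call over all 8 libraries (0.54 on the log2 scale, SE 0.274, adjusted p = 0.179) and an increase without P14 replicate 1 (0.82, SE 0.144, adjusted p = 0.00215). Ntn3 averaged 4.46 ± 2.03 FPKM at P14 and 7.73 ± 1.33 FPKM at E17.5, and all its P14 values lay below all E17.5 values (-0.76 on the log2 scale, SE 0.309, adjusted p = 0.107; -0.45, SE 0.147, adjusted p = 0.033 without P14 replicate 1). Ntn3 overlaps Tbc1d24 on the same strand (mean 4.87 FPKM), so its level is uncertain. Ntn5 had 0.0638 to 0.156 FPKM at P14 and 0.11 to 0.233 FPKM at E17.5. Marker sums of several cell types moved with Ntn1 and Ntn4, low in P14 replicate 1 and above E17.5 in replicates 2 to 4, and their part in these values was not tested. These were smooth muscle, as given above, and pericytes (134 FPKM in P14 replicate 1 and 311 to 359 FPKM in the others, against 171 to 179 FPKM at E17.5). Interstitial cells of Cajal (26.5 FPKM and 71.2 to 86.1 FPKM, against 33.0 to 42.6 FPKM) and mesothelium (18.2 FPKM and 112 to 142 FPKM, against 50.9 to 88.0 FPKM) did so too, as did the enteric neuron markers.

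The Slits and Robos divided in the same way. Slits are secreted proteins that repel cells through Robo receptors. Robo1 (chromosome 16, 71824406 to 72844379, plus strand, GRCm39) was at 1.22, 1.96, 2.45 and 2.14 FPKM in P14 replicates 1 to 4, against 6.42, 6.43, 6.8 and 6.27 FPKM in E17.5 replicates 1 to 4. Robo2, its neighbour 844.5 kb away on the same chromosome, was at 1.12, 1.45, 1.73 and 1.52 FPKM in P14 replicates 1 to 4, against 4.12, 4.5, 4.15 and 4.56 FPKM in E17.5 replicates 1 to 4. In both genes every P14 value lay below every E17.5 value. Robo1 had a log2 fold change of -1.36 (SE 0.147, adjusted p = 0.0011) and Robo2 of -1.12 (SE 0.112, adjusted p = 0.000837), and these calls held in all 15 alternative settings. The endothelial receptor Robo4, the member of the family with the highest mean level, was at 16.0, 33.4, 33.05 and 38.4 FPKM in P14 replicates 1 to 4, against 41.7, 39.4, 37.7 and 37.2 FPKM in E17.5 replicates 1 to 4. Its ages overlapped and it did not pass (-0.42 on the log2 scale, SE 0.25, adjusted p = 0.243; -0.16, SE 0.08, adjusted p = 0.138 without P14 replicate 1). Robo3, which in mouse lets commissural axons cross the midline, lies 2.0 kb from Robo4 and had 0.0729 to 0.135 FPKM at P14 and 0.0349 to 0.0712 FPKM at E17.5.

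Slit2, the most widely studied Robo ligand, was at 2.79, 13.05, 10.8 and 10.97 FPKM in P14 replicates 1 to 4, against 6.2, 6.46, 6.86 and 7.48 FPKM in E17.5 replicates 1 to 4. Slit3, the Slit with the highest level here, was at 5.27, 22.6, 15.9 and 20.3 FPKM in P14 replicates 1 to 4, against 12.4, 15.96, 10.96 and 12.02 FPKM in E17.5 replicates 1 to 4. Slit1, the Slit with the lowest level, was at 0.547, 2.47, 1.74 and 2.04 FPKM in P14 replicates 1 to 4, against 1.31, 0.982, 1.32 and 1.05 FPKM in E17.5 replicates 1 to 4. In each Slit P14 replicate 1 was the lowest of the 8 libraries, and in Slit1 and Slit2 the other P14 libraries lay above all E17.5 libraries. None of the Slits passed over all libraries, with adjusted p of 0.459 for Slit1, 0.639 for Slit2 and 0.807 for Slit3. All 3 rose without P14 replicate 1, Slit2 by 0.70 (SE 0.0947, adjusted p = 0.000589), Slit3 by 0.57 (adjusted p = 0.0124) and Slit1 by 0.51 (adjusted p = 0.00892). The marker sums of smooth muscle, pericytes, interstitial cells of Cajal, mesothelium and enteric neurons given above moved with the Slits as well, and their part was not tested.

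A ratio of 2 genes within a library does not depend on how that library was scaled. The ratio of Slit2 to Robo1 FPKM was 2.28, 6.64, 4.41 and 5.13 in P14 replicates 1 to 4, against 0.966, 1.0, 1.01 and 1.19 in E17.5 replicates 1 to 4. The ratio of Ntn1 to Unc5b FPKM was 1.1, 3.62, 2.94 and 3.36 in P14 replicates 1 to 4, against 0.895, 0.916, 0.789 and 0.832 in E17.5 replicates 1 to 4. Both ratios were higher in all 4 P14 libraries than in any E17.5 library, P14 replicate 1 included, although that library came closest to the E17.5 range. These pairs were chosen after their values had been seen and are given without a test.

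Annotated start regions of Unc5c, Sema5b and Robo1, all with large decreases, are shown with that of Slit2, so that the receptor Robo1 stands beside a ligand whose level went the other way without P14 replicate 1. Each runs from 250 bases before the annotated start to 50 after it, 5′ to 3′ on the gene's strand, from RefSeq on GRCm38.p6, which is an older build than that of the expression table. Capitals mark the GC box GGGCGG or its reverse complement CCGCCC. The windows are chr3:141465314-141465613, plus strand for Unc5c, chr16:35541112-35541411, plus strand for Sema5b, chr16:72662899-72663198, plus strand for Robo1 and chr5:47982905-47983204, plus strand for Slit2. The Robo1 window lies much farther from the gene start of the expression table (71824406) than the Sema5b window on the same chromosome from its own (35361517). It may therefore belong to another start inside the Robo1 locus.
Unc5c: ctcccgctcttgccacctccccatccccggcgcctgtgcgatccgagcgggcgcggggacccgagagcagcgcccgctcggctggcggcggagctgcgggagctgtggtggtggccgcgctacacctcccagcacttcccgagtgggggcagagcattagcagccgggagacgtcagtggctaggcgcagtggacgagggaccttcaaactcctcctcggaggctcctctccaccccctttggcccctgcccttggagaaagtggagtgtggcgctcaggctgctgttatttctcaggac
Sema5b: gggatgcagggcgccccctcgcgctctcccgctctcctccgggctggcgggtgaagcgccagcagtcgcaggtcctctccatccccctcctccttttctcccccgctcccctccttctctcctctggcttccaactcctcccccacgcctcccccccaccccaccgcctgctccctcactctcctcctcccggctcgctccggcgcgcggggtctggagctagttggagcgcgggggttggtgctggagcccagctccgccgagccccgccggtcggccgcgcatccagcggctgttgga
Robo1: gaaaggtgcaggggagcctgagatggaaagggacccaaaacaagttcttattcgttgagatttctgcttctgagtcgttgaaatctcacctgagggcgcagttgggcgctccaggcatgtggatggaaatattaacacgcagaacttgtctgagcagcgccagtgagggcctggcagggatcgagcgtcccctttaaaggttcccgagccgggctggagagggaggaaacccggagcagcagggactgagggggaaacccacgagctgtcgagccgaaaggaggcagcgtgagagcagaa
Slit2: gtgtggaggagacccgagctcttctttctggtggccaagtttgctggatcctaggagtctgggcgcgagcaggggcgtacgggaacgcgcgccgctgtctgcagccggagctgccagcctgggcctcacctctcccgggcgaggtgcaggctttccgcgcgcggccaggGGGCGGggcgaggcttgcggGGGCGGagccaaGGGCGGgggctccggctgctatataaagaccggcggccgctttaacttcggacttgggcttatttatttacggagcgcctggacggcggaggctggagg

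Slit2 held the GC box 3 times and the TATA box letters TATAAA, and neither was in the windows of Unc5c, Sema5b and Robo1, with both strands searched. GC content was 68.3% for Unc5c, 73.0% for Sema5b, 57.0% for Robo1 and 68.0% for Slit2. The GC box was in 71.4% of the 77 member windows, which cover 61 of the 71 genes, beside 35.7% of all 32851 windows of that table, and the TATA box letters in 2.6% beside 13.6%. The median GC content was 64.3% in the member windows and 52.7% in all windows. The E-box palindrome CACGTG was in none of the 4 printed windows, and in 6.5% of member windows and 7.2% of all windows. These matches describe letters only, in a table that holds some genes more than once.

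**Figure D2:**
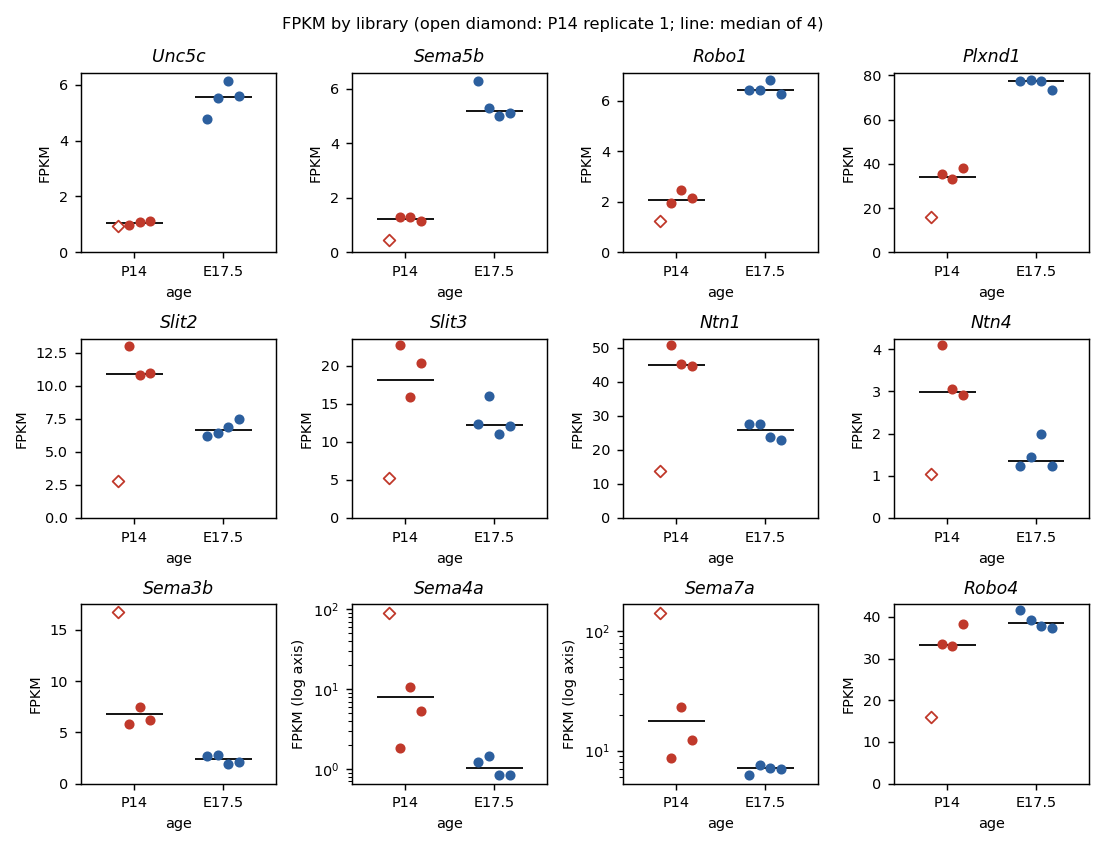
FPKM of 12 members in each library, P14 at the left and E17.5 at the right of each panel, with the median of the 4 libraries as a line and P14 replicate 1 as an open diamond; the axes of Sema4a and Sema7a are logarithmic. Unc5c, Sema5b, Robo1 and Plxnd1 have no overlap of the ages, whereas P14 replicate 1 lies below the E17.5 libraries in Slit2, Slit3 and Ntn1 and far above the other P14 libraries in Sema4a and Sema7a.

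All 20 semaphorins were tested. With all libraries 4 fell and 1 rose (20% and 5%), beside 15.0% lower and 9.72% higher among all tested genes. Without P14 replicate 1 the numbers were 7 and 5 (35% and 25%), beside 26.9% and 22.6% of all tested genes. The summed level of the family was 148 ± 10.1 FPKM over P14 replicates 2 to 4 (n = 3) and 147 ± 1.37 FPKM at E17.5 (SD, n = 4), with 366 FPKM in P14 replicate 1, of which Sema7a made up 142 FPKM and Sema4a 91.2 FPKM.

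The secreted class of semaphorins, which signal through neuropilins and plexins, held 3 of these 5 calls. Sema3a, which in mouse delays the entry of neural crest cells and axons into the hindgut, was at 0.674, 1.79, 1.55 and 1.92 FPKM in P14 replicates 1 to 4, against 3.73, 4.14, 4.67 and 5.26 FPKM in E17.5 replicates 1 to 4. Sema3f, a ligand of Nrp2, was at 6.17, 11.8, 10.97 and 11.5 FPKM in P14 replicates 1 to 4, against 26.03, 23.8, 22.4 and 20.8 FPKM in E17.5 replicates 1 to 4. Both were below the E17.5 range in every P14 library, Sema3a with -1.16 on the log2 scale, SE 0.195, adjusted p = 0.00568 and Sema3f with -1.16 on the log2 scale, SE 0.196, adjusted p = 0.00577.

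Sema3b (chromosome 9, 107474873 to 107486440, minus strand, GRCm39) was the 1 guidance gene that rose with all libraries. It was at 16.7, 5.85, 7.44 and 6.17 FPKM in P14 replicates 1 to 4, against 2.72, 2.76, 1.87 and 2.14 FPKM in E17.5 replicates 1 to 4. Every P14 value exceeded every E17.5 value, with P14 replicate 1 highest (1.47 on the log2 scale, SE 0.299, adjusted p = 0.0116; 1.15, SE 0.128, adjusted p = 0.000222 without P14 replicate 1). Sema3b and Sema3f are neighbours on chromosome 9, 72.3 kb apart and on the same strand, and they changed in opposite directions. Its P14 libraries stood in the order of their epithelial marker sums, replicate 1, 3, 4 and 2 (3734, 587.3, 215.6 and 119.7 FPKM), and the part of epithelium in this increase was not tested. Part of Sema3b overlaps Lsmem2 on the same strand (mean 0.761 FPKM).

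Sema3d, a guide of neural crest and venous endothelial cells, was at 1.21, 5.32, 4.81 and 6.54 FPKM in P14 replicates 1 to 4, against 7.84, 8.63, 9.48 and 11.6 FPKM in E17.5 replicates 1 to 4. Sema3e, a direct Plxnd1 ligand, was at 0.301, 1.61, 1.7 and 2.16 FPKM in P14 replicates 1 to 4, against 3.44, 2.11, 3.03 and 2.57 FPKM in E17.5 replicates 1 to 4. Sema3d had the lower P14 values throughout while the ages overlapped in Sema3e, and neither passed over all libraries (adjusted p = 0.0696 and 0.103). Without P14 replicate 1 Sema3d fell by 0.66 (adjusted p = 0.00498) and Sema3e by 0.41 (adjusted p = 0.0379). Sema3c, known from the cardiac outflow tract, rose without P14 replicate 1 only, with means of 19.9 ± 6.67 FPKM at P14 and 16.9 ± 2.71 FPKM at E17.5 over all 4 libraries of each age (0.16 on the log2 scale, SE 0.27, adjusted p = 0.692; 0.44, SE 0.119, adjusted p = 0.0154 without that library). Its ratio to Plxnd1 FPKM was 0.628, 0.686, 0.633 and 0.63 in P14 replicates 1 to 4, against 0.195, 0.193, 0.215 and 0.284 in E17.5 replicates 1 to 4, with no overlap of the ages, and this pair too was chosen after its values had been seen. Sema3g, an endothelial semaphorin, averaged 6.15 ± 2.75 FPKM at P14 and 5.67 ± 0.622 FPKM at E17.5 (adjusted p = 0.987). Sema3a, Sema3c, Sema3d and Sema3e all lie on chromosome 5, where Sema3a stands 535.9 kb from Sema3d and 421.8 kb from Sema3e.

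Of the membrane-bound semaphorins, Sema5b had a decrease close to that of Unc5c. Sema5b (chromosome 16, 35361517 to 35484631, plus strand, GRCm39), which repels neurites through plexin A receptors in mouse retina, was at 0.451, 1.29, 1.31 and 1.15 FPKM in P14 replicates 1 to 4, against 6.28, 5.3, 5.01 and 5.1 FPKM in E17.5 replicates 1 to 4. No P14 value exceeded 1.31 FPKM and no E17.5 value was below 5.01 FPKM (-1.67 on the log2 scale, SE 0.172, adjusted p = 0.000961). Its relative Sema5a did not pass, with means of 11.2 ± 4.02 FPKM at P14 and 14.7 ± 1.0 FPKM at E17.5 (adjusted p = 0.253). Sema6b averaged 3.86 ± 0.982 FPKM at P14 and 6.47 ± 0.629 FPKM at E17.5 and fell (-0.64 on the log2 scale, SE 0.17, adjusted p = 0.0289), a call lost without P14 replicate 3 or any 1 of the E17.5 libraries (adjusted p 0.0621 to 0.0817), and with assigned reads, voom or no filter (0.0514 to 0.0616). Sema6a was at 3.72, 1.49, 1.72 and 1.53 FPKM in P14 replicates 1 to 4, against 2.85, 2.73, 3.19 and 3.16 FPKM in E17.5 replicates 1 to 4. Apart from P14 replicate 1, the highest of all 8 libraries, its P14 values lay below E17.5, and it fell without that library (-0.63, SE 0.0926, adjusted p = 0.000891) but did not pass with it (-0.41 on the log2 scale, SE 0.212, adjusted p = 0.191). With all 8 libraries it passed after rescaling to TPM (-0.69, adjusted p = 0.0351) and with voom (-0.69, adjusted p = 0.0473). Sema6c (7.74 ± 3.68 FPKM at P14 and 8.39 ± 1.3 FPKM at E17.5) and Sema6d (5.61 ± 0.666 FPKM at P14 and 6.07 ± 0.805 FPKM at E17.5) passed in neither fit, with adjusted p of 0.668 and 0.601 over all libraries and 0.414 and 0.234 without P14 replicate 1.

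Sema4a, Sema7a and Sema4g had their highest level in P14 replicate 1 by a wide margin. Sema4a was at 91.2, 1.84, 10.6 and 5.38 FPKM in P14 replicates 1 to 4, against 1.22, 1.47, 0.849 and 0.831 FPKM in E17.5 replicates 1 to 4. Sema7a, a GPI-anchored semaphorin that binds integrins and Plxnc1, was at 142, 8.7, 23.01 and 12.2 FPKM in P14 replicates 1 to 4, against 6.21, 7.55, 7.16 and 7.04 FPKM in E17.5 replicates 1 to 4. Sema4g was at 41.8, 2.42, 6.68 and 3.14 FPKM in P14 replicates 1 to 4, against 3.36, 3.71, 3.18 and 3.56 FPKM in E17.5 replicates 1 to 4. The mean of Sema7a over the 8 libraries was the highest of the semaphorins, but over P14 replicates 2 to 4 it was 14.7 FPKM, against 6.99 FPKM at E17.5, below the 23.1 and 16.9 FPKM of Sema3c. In all 3 the P14 libraries stood in the order replicate 1, 3, 4 and 2, which was also the order of the epithelial marker sum, and the part of epithelium in these values was not tested. Of the 59 tested members 9 had this order and 15 its reverse (15.3% and 25.4%), beside 13.8% and 16.2% of all tested genes. The 9 were Sema3b, Sema4a, Sema4b, Sema4g, Sema6a, Sema7a, Plxna2, Plxnb2 and Efnb1.

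Sema4a and Sema7a did not pass with all libraries (adjusted p = 0.0856 and 0.136), although every P14 value exceeded every E17.5 value in both. Without P14 replicate 1 both rose, Sema4a by 1.52 (SE 0.439, adjusted p = 0.0263) and Sema7a by 0.87 (SE 0.279, adjusted p = 0.036). Sema4a also passed without P14 replicate 2 (3.19, adjusted p = 0.0364). Sema4g passed in neither case (adjusted p = 0.392, and 0.755 without P14 replicate 1). Sema4b had 12.7 ± 4.52 FPKM at P14 and 7.79 ± 0.506 FPKM at E17.5 and missed the threshold (adjusted p = 0.0666), with an increase of 0.38 without P14 replicate 1 (adjusted p = 0.00613). With all 8 libraries Sema4b passed after rescaling to assigned reads, quantile normalization or voom (adjusted p 0.0342 to 0.0366). Sema4d, a Plxnb1 ligand of lymphocytes and other cells, averaged 5.95 ± 1.61 FPKM at P14 and 4.52 ± 0.45 FPKM at E17.5 (adjusted p = 0.277) and passed only without P14 replicate 2 (0.49, adjusted p = 0.03). Sema4c and Sema4f passed in neither fit, with means of 11.1 ± 3.96 FPKM at P14 and 12.5 ± 1.6 FPKM at E17.5 for Sema4c and 1.36 ± 0.608 FPKM at P14 and 1.82 ± 0.0725 FPKM at E17.5 for Sema4f.

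Of the semaphorin receptors, 10 of 11 plexins and neuropilins were tested. With all libraries 5 fell and 0 rose (50% and 0%), beside 15.0% lower and 9.72% higher among all tested genes. Their summed level was 121 FPKM in P14 replicate 1 and 149 to 162 FPKM in the other P14 libraries, against 218 to 234 FPKM at E17.5. Plxnd1 (chromosome 6, 115931772 to 115972300, minus strand, GRCm39), a receptor of developing vessels and the member with the highest mean level among all families, was at 16.1, 35.2, 33.3 and 38.2 FPKM in P14 replicates 1 to 4, against 77.3, 77.9, 77.6 and 73.3 FPKM in E17.5 replicates 1 to 4. No P14 value exceeded 38.2 FPKM and no E17.5 value was below 73.3 FPKM (-1.36 on the log2 scale, SE 0.252, adjusted p = 0.00808). Plxnc1, the Sema7a receptor, was at 1.45, 0.992, 1.72 and 1.66 FPKM in P14 replicates 1 to 4, against 4.32, 4.39, 5.43 and 4.49 FPKM in E17.5 replicates 1 to 4. It fell by 1.21 (SE 0.136, adjusted p = 0.00125), and P14 replicate 1 lay within the other P14 libraries. Plxna1, a plexin of the neuropilin complexes, likewise did not vary much within P14, at 10.7, 10.7, 11.3 and 10.3 FPKM in P14 replicates 1 to 4, against 20.0, 20.4, 19.1 and 16.1 FPKM in E17.5 replicates 1 to 4 (-0.75 on the log2 scale, SE 0.102, adjusted p = 0.00242).

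Nrp1, the neuropilin that also binds VEGF, was at 9.07, 20.2, 17.4 and 20.4 FPKM in P14 replicates 1 to 4, against 26.1, 26.9, 30.1 and 32.4 FPKM in E17.5 replicates 1 to 4. Every P14 library was below every E17.5 library, but the call (-0.81 on the log2 scale, SE 0.242, adjusted p = 0.0448) was lost without P14 replicate 3 or 4 or any 1 E17.5 library (adjusted p 0.0517 to 0.115). Nrp2, the neuropilin of lymphatic vessels and of Sema3f, was at 16.4, 46.5, 40.7 and 45.9 FPKM in P14 replicates 1 to 4, against 45.3, 45.2, 43.6 and 40.8 FPKM in E17.5 replicates 1 to 4. Outside P14 replicate 1 its values overlapped between the ages (-0.33 on the log2 scale, SE 0.312, adjusted p = 0.471; 0.02, SE 0.0771, adjusted p = 0.853 without that library). Plxna3 averaged 2.42 ± 0.751 FPKM at P14 and 4.15 ± 0.263 FPKM at E17.5 (-0.62 on the log2 scale, SE 0.181, adjusted p = 0.0402), a call lost in the same 6 omissions as that of Nrp1 (adjusted p 0.054 to 0.0993). Neither Nrp1 nor Plxna3 passed after rescaling to TPM (adjusted p = 0.0629 and 0.0605) or to assigned reads (0.0745 and 0.0651), with voom (0.0792 and 0.0658) or without a filter (0.091 and 0.0818). Plxna2 was at 6.94 FPKM in P14 replicate 1 and 3.01 to 3.31 FPKM in the other P14 libraries, against 5.89 to 7.04 FPKM at E17.5. Plxnb2 was at 54.8 FPKM in P14 replicate 1 and 24.7 to 27.2 FPKM in the other P14 libraries, against 29.8 to 37.4 FPKM at E17.5. Both fell without P14 replicate 1, by 0.86 (adjusted p = 0.000132) and 0.32 (adjusted p = 0.0204), and P14 replicate 1 was 2.23 and 2.08 times the mean of the other P14 libraries in these genes. Plxna2 also passed with all libraries after rescaling to TPM (-0.89, adjusted p = 0.0119). Plxna4 (2.98 ± 1.22 FPKM at P14 and 3.24 ± 0.405 FPKM at E17.5) and Plxnb1 (6.4 ± 2.53 FPKM at P14 and 6.48 ± 0.443 FPKM at E17.5) passed in neither fit. Plxnb3 was below the filter and was not tested in either fit. It was at 0.613 FPKM in P14 replicate 1 and 1.42 to 1.86 FPKM in the other P14 libraries, against 0.607 to 0.766 FPKM at E17.5.

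Beside these vascular receptors, the 6 blood endothelial markers summed to 128 to 275 FPKM at P14 (229 to 275 FPKM without replicate 1), against 428 to 478 FPKM at E17.5, and all 6 were lower in every P14 library than in every E17.5 library. The 4 lymphatic endothelial markers summed to 26.2 to 44.2 FPKM at P14, against 92.7 to 103 FPKM at E17.5, with 3 of 4 lower throughout. Their part in the decreases of Plxnd1, Nrp1, Unc5b, Ephb4 and Efnb2 was not tested. Robo4 and Nrp2, also known from endothelium, were not called lower in either fit.

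Ephs are receptor tyrosine kinases that answer ephrins on neighbouring cells. Of 14 genes 9 were tested. With all libraries 3 fell and 0 rose (33.3% and 0%), beside 15.0% lower and 9.72% higher among all tested genes. Without P14 replicate 1, 4 fell and 2 rose (44.4% and 22.2%), beside 26.9% and 22.6% of all tested genes. Ephb1, which in mouse turns retinal axons at the midline, was at 1.19, 2.14, 2.77 and 2.91 FPKM in P14 replicates 1 to 4, against 6.99, 6.62, 6.46 and 5.78 FPKM in E17.5 replicates 1 to 4. Ephb4, the receptor of venous endothelium and the Eph gene with the highest mean level, was at 20.1, 31.1, 30.03 and 29.9 FPKM in P14 replicates 1 to 4, against 50.9, 47.8, 41.8 and 36.5 FPKM in E17.5 replicates 1 to 4. Ephb2, known with Ephb3 for placing cells in the crypts, was at 3.24, 3.52, 3.1 and 3.07 FPKM in P14 replicates 1 to 4, against 6.18, 5.43, 4.68 and 3.65 FPKM in E17.5 replicates 1 to 4. The ages did not overlap in these 3 genes, and E17.5 values of Ephb2 and Ephb4 were spread wider than their P14 values outside replicate 1.

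Ephb1 had a log2 fold change of -1.23 (SE 0.19, adjusted p = 0.00422) and its call held in every alternative setting. Ephb4 had -0.66 (adjusted p = 0.0269), no longer made when P14 replicate 3 or E17.5 replicate 1, 2 or 3 was left out (adjusted p 0.0518 to 0.0759), or with assigned reads, voom or no filter (0.0549 to 0.0571). Ephb2 had -0.48 (adjusted p = 0.0458), not made when P14 replicate 2, 3 or 4 or E17.5 replicate 1, 2 or 3 was left out (adjusted p 0.0649 to 0.119) or without a filter (0.0901). Ephb3 averaged 8.05 ± 3.15 FPKM at P14 and 12.6 ± 1.81 FPKM at E17.5 and fell without P14 replicate 1 only (adjusted p = 0.0335, against 0.135 with it).

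The 2 Eph genes that rose without P14 replicate 1 were Ephb6, whose kinase domain is inactive, and Epha7. Ephb6 was at 1.12, 2.81, 3.44 and 3.03 FPKM in P14 replicates 1 to 4, against 1.61, 1.63, 1.36 and 1.78 FPKM in E17.5 replicates 1 to 4. Epha7 was at 1.91, 4.56, 3.11 and 3.2 FPKM in P14 replicates 1 to 4, against 1.61, 2.09, 2.25 and 2.32 FPKM in E17.5 replicates 1 to 4. P14 replicates 2 to 4 lay above the E17.5 range in both, by log2 fold changes of 0.66 (adjusted p = 0.00117) and 0.58 (adjusted p = 0.00881), against adjusted p of 0.208 and 0.156 with all libraries. Epha2, an Efna1 receptor of epithelial cells, was at 13.7 FPKM in P14 replicate 1 and 3.93 to 4.68 FPKM in the other P14 libraries, against 4.42 to 5.64 FPKM at E17.5, and it passed in neither fit. Epha3 (3.2 ± 1.57 FPKM at P14 and 4.35 ± 0.612 FPKM at E17.5) and Epha4 (4.2 ± 1.52 FPKM at P14 and 5.93 ± 0.547 FPKM at E17.5), receptors known from motor axons, did not pass either. The untested Eph genes were Epha1, Epha5, Epha6, Epha8 and Epha10, and Epha8 was at 0.358 FPKM in P14 replicate 1 and 1.14 to 1.56 FPKM in the other P14 libraries, against 0.454 to 0.67 FPKM at E17.5. Epha5 was at 0.428, 0.906, 0.842 and 1.04 FPKM in P14 replicates 1 to 4, against 0.381, 0.388, 0.379 and 0.289 FPKM in E17.5 replicates 1 to 4, with every P14 value above every E17.5 value. Epha1 had 0.656 to 5.37 FPKM at P14 and 0.36 to 0.498 FPKM at E17.5, and it overlaps Zyx on the opposite strand (mean 45.8 FPKM), so its level is uncertain. Epha10 had 0.0675 to 0.167 FPKM at P14 and 0.0808 to 0.196 FPKM at E17.5 and Epha6 had 0.0 to 0.203 FPKM at P14 and 0.0284 to 0.0706 FPKM at E17.5, with 0 reads of Epha6 in P14 replicate 1, where a count of 0 allows up to 3 reads.

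Ephrins are held in the membrane, the A class by a lipid anchor and the B class by a transmembrane domain. Of 8 genes 7 were tested; 2 fell and 0 rose, with and without P14 replicate 1 (28.6%, beside 15.0% of all tested genes lower with that library and 26.9% without it). Efna2 was at 2.01, 4.86, 4.08 and 5.17 FPKM in P14 replicates 1 to 4, against 9.98, 9.13, 9.92 and 8.48 FPKM in E17.5 replicates 1 to 4. Efnb2, the arterial partner of Ephb4, was at 7.19, 9.1, 8.27 and 7.98 FPKM in P14 replicates 1 to 4, against 11.5, 11.4, 12.8 and 11.6 FPKM in E17.5 replicates 1 to 4. Every P14 value of both lay below every E17.5 value (Efna2 -1.10 on the log2 scale, SE 0.224, adjusted p = 0.0117; Efnb2 -0.49 on the log2 scale, SE 0.0993, adjusted p = 0.0111). The ratio of Efnb2 to Ephb4 FPKM was 0.359, 0.293, 0.276 and 0.267 in P14 replicates 1 to 4, against 0.225, 0.238, 0.306 and 0.317 in E17.5 replicates 1 to 4, so that the ages overlapped in the balance of this ligand and its receptor.

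Efna1, the ephrin with the highest mean level, was at 68.1, 25.98, 25.3 and 21.7 FPKM in P14 replicates 1 to 4, against 28.2, 27.1, 25.9 and 24.8 FPKM in E17.5 replicates 1 to 4. P14 replicate 1 alone stood out, and the gene did not pass with or without it (adjusted p = 0.614 and 0.268). Efna4, Efna5, Efnb1 and Efnb3 also passed in neither fit, with adjusted p between 0.209 and 0.668 over all libraries. Their means were 4.57 ± 1.18 FPKM at P14 and 5.43 ± 0.879 FPKM at E17.5 for Efna4, 11.1 ± 4.52 FPKM at P14 and 11.9 ± 0.93 FPKM at E17.5 for Efna5, 16.5 ± 1.81 FPKM at P14 and 19.5 ± 3.06 FPKM at E17.5 for Efnb1 and 5.61 ± 2.3 FPKM at P14 and 8.04 ± 0.715 FPKM at E17.5 for Efnb3. Efna3 was below the filter, with 0.423 to 0.728 FPKM at P14 and 0.849 to 1.29 FPKM at E17.5. Efna1, Efna3 and Efna4 lie side by side on chromosome 3, 32.9 kb and 9.3 kb apart, and of these neighbours Efna1 alone was higher in P14 replicate 1 than in every other library.

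**Figure D3:**
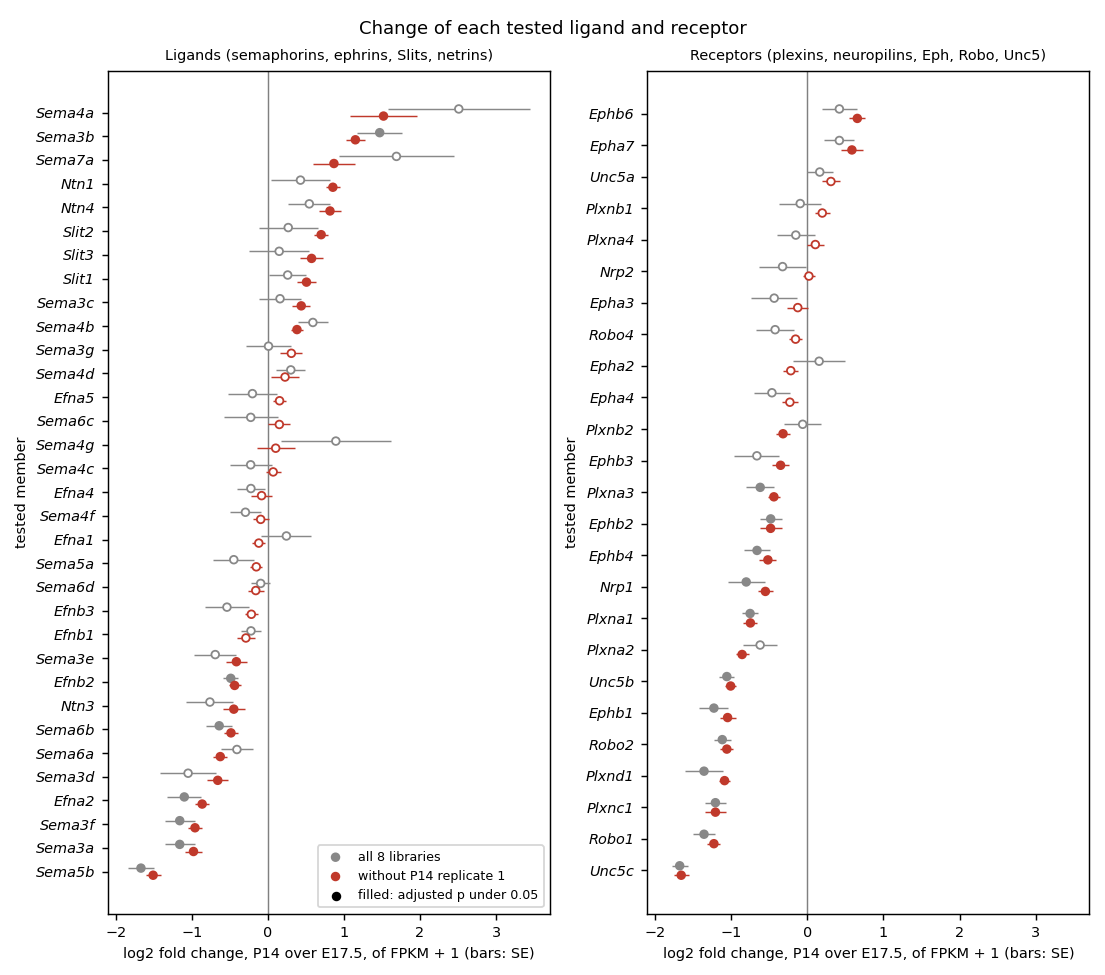
Log2 fold change of P14 over E17.5, with SE, for the 33 tested ligands at the left and the 25 tested receptors at the right; grey points use all 8 libraries, red points leave out P14 replicate 1, and filled points have an adjusted p under 0.05. Most receptors lie left of 0 in both fits, and the ligands at the top, among them Ntn1, Ntn4 and the Slits, are filled in red only, Sema3b excepted.

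P14 replicate 1 was below all other P14 libraries in 42 of the 59 tested members, above them in 13 and within them in 4. The median ratio of its FPKM to the mean of P14 replicates 2 to 4 was 0.458 over the tested members, beside 1.02 over all tested genes, of which 40.9% were below and 44.5% above. Sema3e had the lowest ratio, 0.165, and Sema4a the highest, 15.4. Ratios near 1 were found for Plxna1, Plxnc1 and Ephb2, all of them called lower at P14, and Unc5c and Unc5b had ratios of 0.89 and 0.876. The authors' scaling of this library used an effective library size of 0.78 times its assigned reads, against 1.02 to 1.06 times in the other 7.

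**Figure D4:**
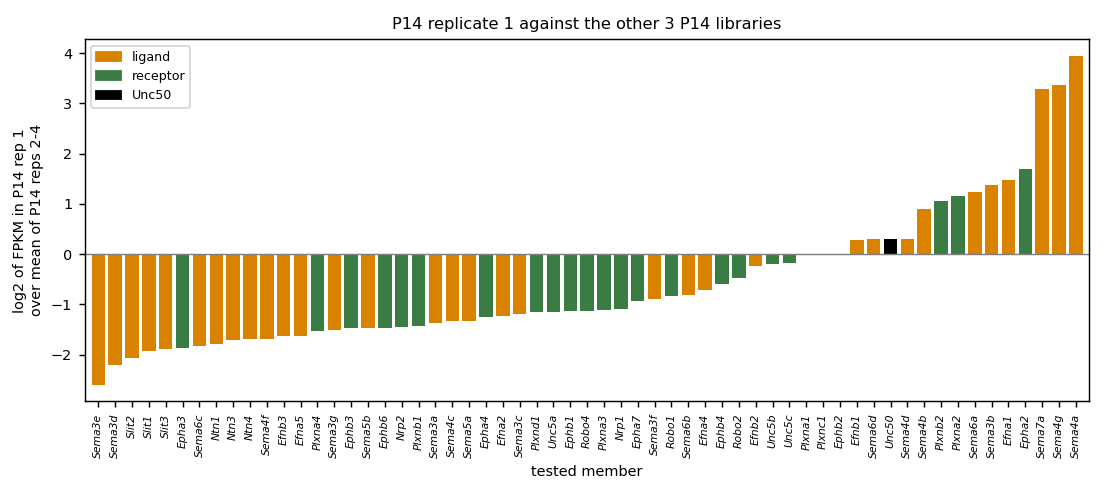
Bars give the log2 ratio of FPKM in P14 replicate 1 to the mean of P14 replicates 2 to 4 for the 59 tested members, ordered from low to high and coloured by role. The bars run from Sema3e at the low end to Sema7a, Sema4g and Sema4a at the high end, and the 3 Slits are among the lowest 5.

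Other genes of guidance signalling were followed in a list of 85 co-receptors, adhesion partners and intracellular effectors, of which 73 were tested. Of these 73, 18 fell and 5 rose, beside 15.0% lower and 9.72% higher among all tested genes. Without P14 replicate 1, 28 of the 73 fell and 18 rose, beside 26.9% and 22.6% of all tested genes. The share of the list that rose in that fit was close to that of all tested genes. The median log2 fold change was -0.22, and -0.08 without P14 replicate 1. Flrt2, an adhesion protein that binds Unc5 receptors, had 3.31 ± 1.41 FPKM at P14 and 7.95 ± 0.564 FPKM at E17.5 (log2 fold change -1.13, adjusted p = 0.0209), and Adgrl3, a latrophilin that binds Flrts, had 0.649 ± 0.149 FPKM at P14 and 2.43 ± 0.0885 FPKM at E17.5 (-1.06, adjusted p = 0.000764). Srgap2, a GTPase-activating protein of the family through which Robo signals, had 3.72 ± 0.865 FPKM at P14 and 8.43 ± 0.442 FPKM at E17.5 (-1.02, adjusted p = 0.00378). Among the increases were those in Ngef, an exchange factor that acts under Eph receptors, with 6.3 ± 7.1 FPKM at P14 and 0.209 ± 0.0546 FPKM at E17.5 (2.19, adjusted p = 0.0188) and in Sdc4, a heparan sulphate proteoglycan, with 53.3 ± 30.1 FPKM at P14 and 18.6 ± 1.36 FPKM at E17.5 (1.34, adjusted p = 0.019). P14 replicate 1 was the highest library for Ngef (16.9 FPKM) and Sdc4 (97.9 FPKM) and the lowest P14 library for Flrt2 (1.21 FPKM), and the P14 and E17.5 values of these 3 genes did not overlap. The P14 libraries of Ngef and Sdc4 stood in the order of the epithelial marker sums, whose part in these increases was not tested. Cfl1, the actin-severing protein at the end of many of these pathways and the gene of the list with the highest level, averaged 569 ± 48.8 FPKM at P14 and 591 ± 51.9 FPKM at E17.5 (adjusted p = 0.725).

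In the 2 matches that are not netrin receptors, every P14 value lay above every E17.5 value. Unc50, a Golgi protein, was at 38.4, 32.2, 30.7 and 30.6 FPKM in P14 replicates 1 to 4, against 24.7, 24.7, 22.6 and 23.9 FPKM in E17.5 replicates 1 to 4 (0.44 on the log2 scale, SE 0.104, adjusted p = 0.0197), and leaving out E17.5 replicate 2, 3 or 4 ended the call (adjusted p 0.052 to 0.0705), as did TPM. Unc5cl, a death-domain protein, was at 8.41, 0.102, 1.91 and 0.852 FPKM in P14 replicates 1 to 4, against 0.0243, 0.0537, 0.0246 and 0.0585 FPKM in E17.5 replicates 1 to 4. Its P14 libraries stood in the order of the epithelial marker sum, and it was too low in most libraries to be tested.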

How the data were processed

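RNA of 8 libraries was measured by RNA-seq, 4 at P14 and 4 at E17.5, grouped by their titles. The authors deposited 1 table of FPKM values per gene with gene lengths. The submitters' processing notes name fastp, HISAT2, CASAVA, DESeq2 1.20.0, featureCounts and GRCm39, with no roles. Whether counting used strand is not stated in them. FPKM times gene length fell on whole multiples of 1 step in 100% of values (tolerance 1e-06), which gave the assigned reads of each library.

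Genes that reached 1 FPKM in 4 or more of 8 libraries were tested on log2(FPKM + 1) with limma 3.58.1 (R 4.3.3, trended prior variance, robust fit with statmod 1.5.0), with no covariate and Benjamini-Hochberg adjustment over all 14044 genes. Each adjusted p is two-sided and from this test, except where an alternative setting is named, whose own fit gave it. The fit without a filter was adjusted over 31574 genes. The script was tested on simulated data. Alternatives were a pseudocount of 0.1, no filter, TPM, rescaling to assigned reads, quantile normalization, limma voom on recovered reads, a replicate block, and leaving out each library in turn. Full values were given for up to 12 called members with the largest increase, up to 12 with the largest decrease and the tested member with the highest mean of each family; other members were chosen to account for all 71. From the list of other guidance genes, the 3 called genes with the largest change in each direction and the gene with the highest mean were named, except 1 that is not reported here. The members, gene lists and marker lists were chosen with earlier results of these data known. Gene coordinates come from the deposited table, and promoter windows from RefSeq on GRCm38.p6, matched by gene identifier for 61 of 71 members.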

Additional observations from a re-analysis of the deposited data

Results flagged for a closer look

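A library was singled out where its gap to the nearest of its group, divided by the group's range, exceeded Dixon's critical value for 4 samples. Of 118 groups (59 tested members at each age) 20 were singled out, and chance alone gives about 1 in 20 groups. P14 replicate 1 was the library in 16 of the 20.

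P14 replicate 1 was far above the other P14 libraries for Sema3b (16.73 FPKM), Sema4a (91.2 FPKM), Sema4g (41.8 FPKM), Sema6a (3.722 FPKM), Sema7a (142.3 FPKM), Plxna2 (6.939 FPKM), Plxnb2 (54.76 FPKM), Epha2 (13.68 FPKM) and Efna1 (68.09 FPKM). It was far below them for Sema3f (6.172 FPKM), Sema4c (5.212 FPKM), Plxna3 (1.298 FPKM), Ephb4 (20.06 FPKM), Efna5 (4.321 FPKM), Efnb3 (2.182 FPKM) and Ntn1 (13.64 FPKM). Of these genes, Sema3b was called higher and Sema3f, Plxna3 and Ephb4 lower at P14 with all libraries, and the calls held without P14 replicate 1.

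Among E17.5 libraries, replicate 4 was far below the others for Sema3g (4.745 FPKM) and Plxnd1 (73.26 FPKM), and replicate 3 was far above them for Plxnc1 (5.429 FPKM) and Efnb2 (12.78 FPKM). The E17.5 values of Plxnd1, Plxnc1 and Efnb2 remained above every P14 value of the same gene.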

How the results depend on the processing

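Of the 20 called members, 13 passed in all 15 alternatives, 7 were lost in 1 or more and 0 changed direction. The count of members that rose was 2, with 1 after rescaling to TPM, 1 with the replicate block and 1 to 13 when single libraries were left out. The count that fell was 18, with 12 under the replicate block, 14 without a filter, and 13 to 25 when single libraries were left out. In the list of other guidance genes, 5 rose (2 to 18 with single libraries left out) and 18 fell (11 to 28). Over all tested genes the replicate block gave 695 higher and 1049 lower, against 1365 and 2108 without it. Deviations of same-numbered libraries correlated at -0.033, 0.00947, -0.0641 and -0.0492, no P14 library correlated best with its own number, and the numbers are not taken as pairs; under the block Efnb2, Ephb2, Ephb4, Nrp1, Plxna3, Sema6b and Unc50 did not pass (adjusted p 0.0545 to 0.0932). With single libraries left out, all tested genes gave 617 to 3176 higher and 1118 to 3782 lower. Log2 fold changes of 12 members turned sign in 1 or more settings. TPM gave -0.0249 for Sema3c, -0.177 for Sema3g, -0.0271 for Epha2 and -0.0384 for Slit3, and Sema3g had -0.0132 with the pseudocount of 0.1, -0.0577 with assigned reads and -0.0882 with voom. With single libraries left out, Sema3g ran from -0.192 to 0.308, Sema4c from -0.334 to 0.0689, Sema6c from -0.435 to 0.15, Nrp2 from -0.465 to 0.0193, Plxna4 from -0.275 to 0.104, Plxnb1 from -0.232 to 0.195, Plxnb2 from -0.321 to 0.0514, Epha2 from -0.219 to 0.305, Efna1 from -0.12 to 0.415, Efna5 from -0.344 to 0.153 and Slit3 from -0.0647 to 0.574. The causes were not tested. Members below 1 FPKM in most libraries rest on few reads, and the depth limits what can be said of them.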
